A study of Homo sapiens with 6 samples.

Results

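The 37 genes described here encode core proteins of the spliceosome, chosen by name from its U2, tri-snRNP, Prp19 and SR-related parts. They are 37 of the 20033 protein-coding genes of the annotation. Every poly(A) peak whose summit lay in the body of such a gene, or up to 4 kb past its 3′ end, was taken as a member, which gave 399 of the 200023 peaks in the list. Of these, 339 had a −log10 q-value of at least 5, the cutoff used by the study, and all values below refer to them. The study performed poly(A) 3′-seq on IMR-32, a human neuroblastoma cell line. Its 6 libraries form 3 groups of 2 replicates: a DMSO group, which received the solvent, a THZ531 group treated at 400 nM for 2 h, and another treated at the same 400 nM for 6 h. The compound THZ531 covalently inhibits CDK12 and CDK13, kinases that act on RNA polymerase II. The list was called once on the merged reads of all samples, so no peak could be assigned to DMSO or to THZ531, replicates could not be compared and the depth of each library is unknown.

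The spliceosome removes introns from pre-mRNA. U1 binds the 5′ splice site, the U2AF proteins and U2 with its SF3A and SF3B proteins define the 3′ splice site and the branch point, and the U4/U6.U5 tri-snRNP then joins. Helicases and the Prp19 complex rearrange these particles into the active enzyme. Splicing and U1 also bear on where a transcript is cleaved and polyadenylated, because a poly(A) site in an intron can be used only while that intron is still present. The genes of the spliceosome are themselves transcribed by RNA polymerase II, spliced and polyadenylated, and it is these transcripts that the peaks map.

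In this assay a read starts where the transcript meets its poly(A) tail. The downstream border of a peak, named the 3′ edge here, is therefore the side of cleavage. Distances to annotated ends are given from the 3′ edge unless the summit is named. Reads were extended to 100 bp, so in a much wider peak the reads at the summit can end well before the 3′ edge. Each peak is given with its reads at the summit, the number of extended reads piled up there, solved from the deposited fold and −log10 p. The highest pileup in the whole list was 200 reads. This number counts distinct read starts rather than all reads, if the peak caller kept its default for duplicates, and is not a level of expression. Summits were sorted into 4 classes, tried in turn: transcript end, from 200 bp before to 600 bp past any annotated end of the gene, then exon, intron, and past the last end. The peaks carry no strand, and the strand of the gene was assumed. Intervals are 95% Wilson or exact Poisson intervals and cover counting error only, since peaks of 1 gene share its transcripts.

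All 10 neuroblastoma markers that were checked, among them GATA3 and MYCN, had a transcript-end peak, with 19 to 123 reads at the tallest. Of 8 markers of blood, epithelial, endothelial and liver cells, only EPCAM had such a peak, with 7 reads. A mapping problem touches 1 member directly. The reference holds an annotated artifactual duplicate of U2AF1, and the mapping kept a read at up to 20 places, so the peaks of U2AF1 are given below together with those of its copy.

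The sites that the results turn on are shown first. Each of the first set is a window of 30 bases, 5′ to 3′ on the gene strand. It starts with a hexamer in the 100 bp before the 3′ edge of the tallest transcript-end peak of a gene. Capitals mark the polyadenylation signal (PAS) hexamer, 1 of the 12 that the study lists, with AATAAA and ATTAAA preferred where several were present. The windows are from peaks with the canonical signal (SF3B1, RBM17), 5 of the 6 tallest peaks (U2SURP, EFTUD2, SNRNP200, PRPF38B, SRRM1) and 2 low ones (PRPF31, SNRNP40). In RBM17, EFTUD2 and SNRNP40 the reads at the summit end before the marked hexamer. SRRM2, CDC5L and SF3B3 had no hexamer in those 100 bp. In SRRM2 and CDC5L, with peaks 931 and 454 bp wide, the summit lies outside the stretch searched. U2AF1, the lowest, is shown with its copy below. All coordinates are GRCh38.
SF3B1, chr2:197389776-197389805, minus strand: AATAAAacgtattatatctaaagtcttagt
RBM17, chr10:6115954-6115983, plus strand: AATAAAgcctgcaagttactaaattgtagt
U2SURP, chr3:143053725-143053754, plus strand: AAGAAAaattggaatctcgctccaaagaca
EFTUD2, chr17:44850822-44850851, minus strand: AATATAtgtcatctcccaagaggcttcact
SNRNP200, chr2:96274017-96274046, minus strand: AATAGAgacagagtttagccatgttgccca
PRPF38B, chr1:108699781-108699810, plus strand: AATAAAcgaagtcgaagtggcagtcaagga
SRRM1, chr1:24650019-24650048, plus strand: GATAAAagagataaggaagaaaaagaaagc
PRPF31, chr19:54131693-54131722, plus strand: ATTAAAaggacattgtcaagatctgtcctt
SNRNP40, chr1:31259562-31259591, minus strand: AATACAattcatttaaacttccaagaagct

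Tall intronic sites of 4 genes follow as 120 bases each, of which the last 20 lie past the 3′ edge. In RBM17 the peak is 382 bp wide. Its summit, with the 44 reads, lies at 6092394, outside the window shown. Only sites that touch no annotated exon of the gene and lie in no other gene were taken, 1 for each gene shown. Capitals again mark PAS hexamers in the first 100 bases, and a sequence with no capitals holds none. Overlapping hexamers run together.
RBM17 intron 1, chr10:6092607-6092726, plus strand, 44 reads: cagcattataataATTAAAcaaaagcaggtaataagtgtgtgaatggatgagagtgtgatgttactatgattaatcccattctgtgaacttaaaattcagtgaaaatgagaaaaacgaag
SRRM2 intron 1, chr16:2755476-2755595, plus strand, 33 reads: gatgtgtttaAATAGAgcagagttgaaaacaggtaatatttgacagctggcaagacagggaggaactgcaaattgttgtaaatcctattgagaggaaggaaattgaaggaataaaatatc
SF3B6 intron 1, chr2:24075342-24075461, minus strand, 27 reads: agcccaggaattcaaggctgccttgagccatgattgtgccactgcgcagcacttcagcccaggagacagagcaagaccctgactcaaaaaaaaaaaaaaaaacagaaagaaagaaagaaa
PRPF3 intron 7, chr1:150337361-150337480, plus strand, 26 reads: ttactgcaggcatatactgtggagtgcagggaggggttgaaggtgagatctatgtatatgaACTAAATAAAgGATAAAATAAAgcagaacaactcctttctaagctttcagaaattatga

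As a share of peaks, transcript ends and exons held more, and introns less, in the core spliceosome genes than in protein-coding genes at large. Of the 339 peaks, 155 were intronic, which is 45.7% (40.5 to 51.0), against 64.0% of the 134005 gene and peak pairs over all protein-coding genes. Transcript ends held 96 peaks or 28.3% (23.8 to 33.3), against 20.2%. Exons held 67 peaks or 19.8% (15.9 to 24.3), against 10.3%. A further 21 peaks, 6.19% (4.09 to 9.28), lay past the last annotated end, against 5.51%. A list of 52 other spliceosome genes had nearly the same split, with 46.8% intronic (41.9 to 51.8) and 28.9% at transcript ends (24.6 to 33.6). These shares are not scaled to length. The core genes with an intron had a median of 18.9 kb of intron. Over all genes with an intron and a transcript-end peak it was 28.5 kb. Per kb of intron the core genes had more intronic peaks, as given below. The pairs over all genes also include genes without a transcript-end peak. The levels depend on the classification and the cutoff. With the canonical transcript only, 11.2% (8.28 to 15.0) were at transcript ends and 46.3% (41.1 to 51.6) in introns, against 8.61% and 64.0% over all genes. Among peaks with −log10 q of at least 20, 54.4% (41.6 to 66.6) were at transcript ends and 10.5% (4.91 to 21.1) in introns, against 50.2% and 28%, so the transcript-end share was then not distinguishable from that of all genes. In the bar plot of class shares, the intervals of both spliceosome lists overlap in every class.

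**Figure D1:**
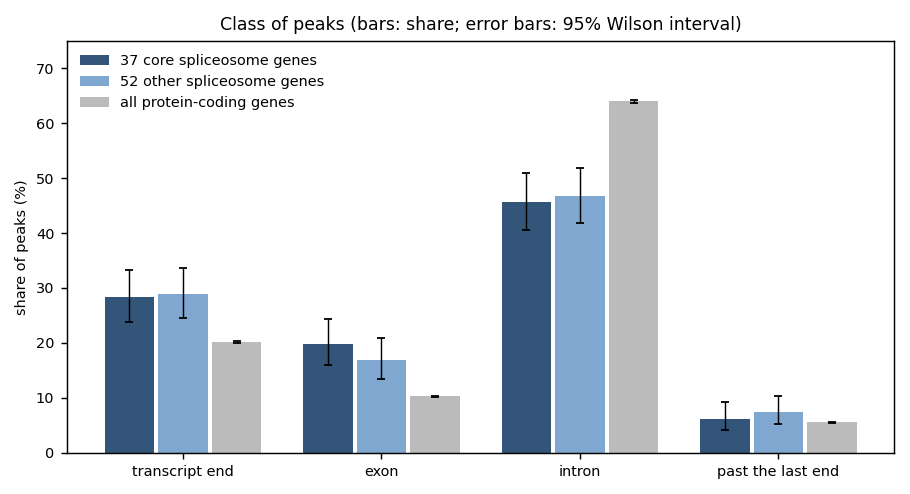
The share of peaks in each class (vertical axis, percent) for the 37 core spliceosome genes, 52 other spliceosome genes and all protein-coding genes, with 95% Wilson intervals as error bars. Intronic peaks made up 45.7% of the core list against 64.0% over all genes, and the bars of both spliceosome lists lie close together in all 4 classes.

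All 37 genes had a transcript-end peak, against 64.1% of all protein-coding genes, and so did all 52 genes of the other list. A 3′ edge within 50 bp of the end of the canonical transcript was found in 27 of 37 genes (73.0%), against 66.9% of genes with a transcript-end peak. At least 2 transcript-end peaks were present in 26 of 37 genes (70.3%), against 55.2%. The median of the tallest transcript-end peak was 34 reads, with quartiles of 27 and 42 and a range of 16 to 61, compared with 35 reads in the other spliceosome list and 25 reads over all genes with such a peak. At the 36 genes whose site sequence was read, AATAAA was the hexamer in 15 and ATTAAA in 6, and 6 had no hexamer within 100 bp of the 3′ edge. Among the last, those 100 bp did not cover the summit in SRRM2, CDC5L, DHX16 and U2AF2. The hexamer started a median of 30 bp before the 3′ edge (quartiles 22.2 and 39.2 bp, 30 genes). In RBM17, EFTUD2, SNRNP40, PRPF3, PRPF4, PRPF18, PRPF38A and U2AF1 the reads at the summit end before that hexamer. The distance there is to the edge of the peak and not to its summit reads.

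**Figure D2:**
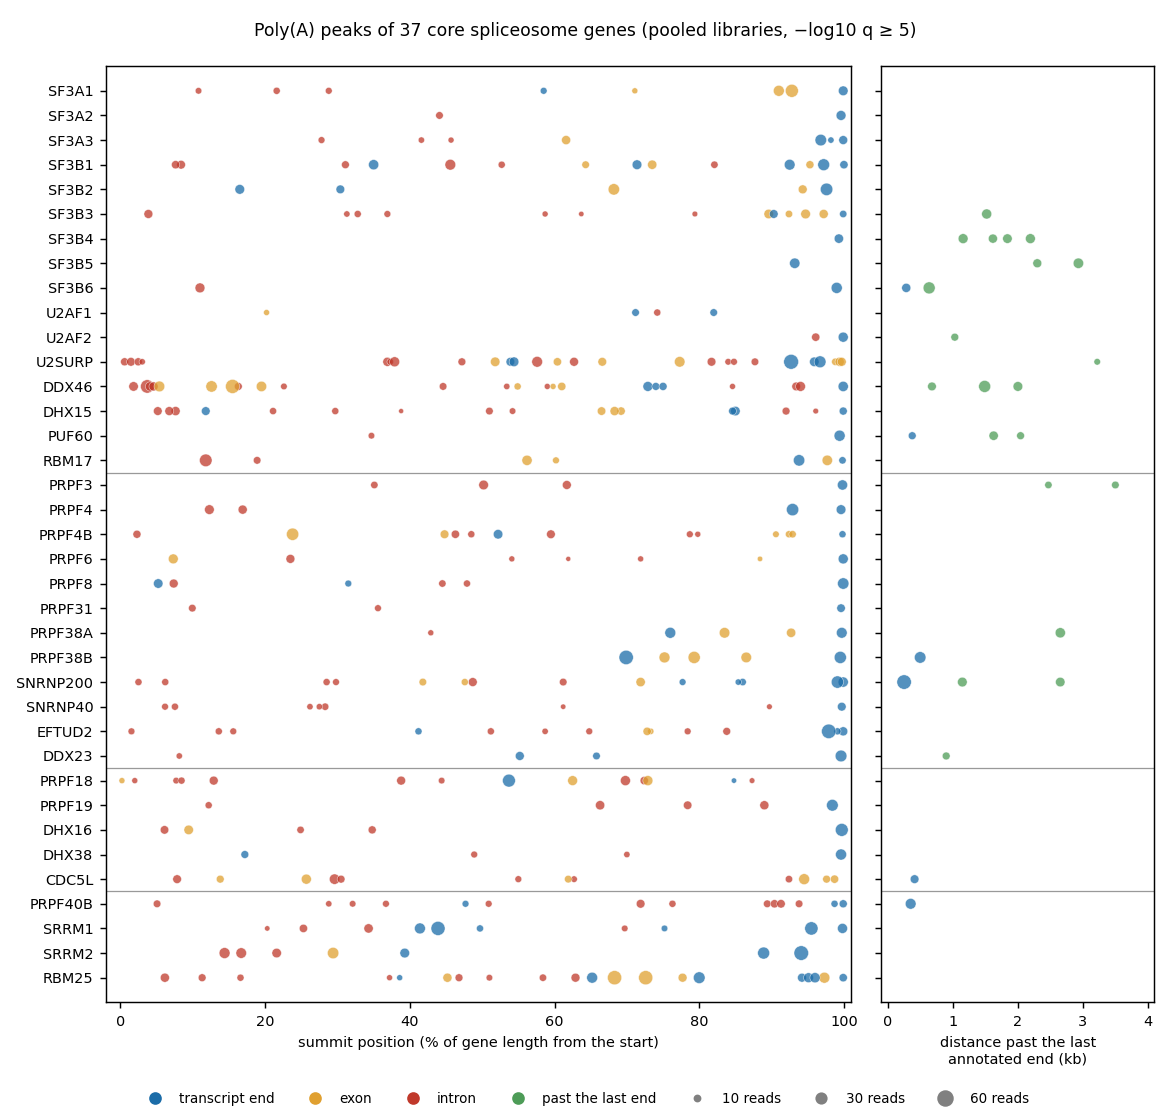
Every peak of the 37 genes at its position along the gene (left, percent of gene length from the start) or past the last annotated end (right, kb). Point area gives the reads at the summit and colour the class, and grey lines part U2 and U2AF, tri-snRNP, Prp19 and catalytic, and SR-related genes from top to bottom. All genes have at least 1 transcript-end peak, and 4 genes (SF3B2, SF3B4, SF3B5 and PRPF38B) have no intronic peak.

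Among the U2 genes, several had a taller site within the 3′ UTR than at the canonical end. In SF3A1, a subunit of the SF3A trimer, the annotated end had 26 reads, whereas a site in the same 3′ UTR, 1635 bp before that end, had 47 reads and another 2180 bp before it had 33. SF3A2, its partner, had only 2 peaks, with 27 reads 20 bp past its end and 16 reads in intron 1. In SF3A3, which completes the trimer, a site 959 bp before the canonical end had 37 reads against 22 reads at that end. Within this trimer the most distal annotated end was thus the lower site in 2 genes.

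SF3B1, the branch-point protein that the study examined as a kinase substrate, had 14 peaks over 46.6 kb, of which 5 were at transcript ends, 3 in exons and 6 in introns. Its tallest peak had 39 reads and ended 16 bp past the canonical end. A site in the 3′ UTR 2045 bp before it had 32 reads and a distal end 1332 bp past it had 19. The intronic peaks had 21 and 19 reads in intron 1, 17 in intron 3, 32 and 14 in intron 6, and 15 in intron 22. A further 29 reads lay in intron 4 near an annotated alternative end. The 32-read site in intron 6 held no hexamer, and 65.0% of the 20 bases past its 3′ edge were A.

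The other SF3B subunits differed mostly in what lay around their ends. SF3B2 had 43 reads at its tallest end site, which also lay in an overlapping gene of the opposite strand. It had no peak of the intron class, although 2 of its transcript-end peaks, with 26 and 21 reads, lay in introns 3 and 5 near annotated short transcripts. SF3B4 had 24 reads at its end and 4 peaks past it with 23 to 27 reads, 1348 to 2253 bp from the end. SF3B5, which has no intron, had 30 reads at its end, 30 reads at 3302 bp past it and 22 reads at 2362 bp past it. SF3B6, which sits next to the branch-point adenosine, had 34 reads at its end and 27 reads in intron 1. A further 40 reads lay past the end, in a peak 555 bp wide with its 3′ edge at 1105 bp.

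SF3B3 was a borderline case. Its tallest intronic peak had 22 reads, in intron 1, and its tallest transcript-end peak 21, a difference of a single read. A peak of 25 reads whose 3′ edge lay 1 bp from an annotated end was counted as exonic because its summit fell outside the 200 bp window. The canonical end had 15 reads and a site 1587 bp past it had 28.

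U2AF1, which reads the AG of the 3′ splice site, had the lowest tallest transcript-end peak of all 37 genes, 16 reads. No peak was listed at its own annotated end, and the end peak of its duplicate, described next, is not counted in this. The gene lies at chr21:43092956-43107570 on the minus strand and had 4 peaks of 10 to 16 reads, all in canonical introns. Those counted at transcript ends lay in introns 3 and 4, 4050 and 2559 bp before the canonical end.

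The duplicate of U2AF1 lies at chr21:6484623-6499248 on the minus strand, and the annotation tags it as an artifactual duplication. It had 3 peaks at the cutoff and 1 under it, with 15 reads and a −log10 q-value of 4.86. That at its end, chr21:6484610-6484794, had 64 reads and a −log10 q-value of 61.94, with a 3′ edge 13 bp past the annotated end. This exceeded the 61 reads of the tallest transcript-end peak among the 37 genes. The last 1000 bases of both loci were identical, and the identical run from the gene end was 1422 bp long. The same 30 bases with AATAAA, which starts 37 bp before the 3′ edge at the copy, are present in both.
Copy, chr21:6484618-6484647, minus strand: AATAAAatttgtagtgataacagtattctt
U2AF1, chr21:43092951-43092980, minus strand: AATAAAatttgtagtgataacagtattctt
The bases shared by both loci cannot place the reads. By its tag the copy is not a gene of its own, so its end peak would count as that of U2AF1. The values of U2AF1 alone, its lowest rank among them, leave this peak out.

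**Figure D3:**
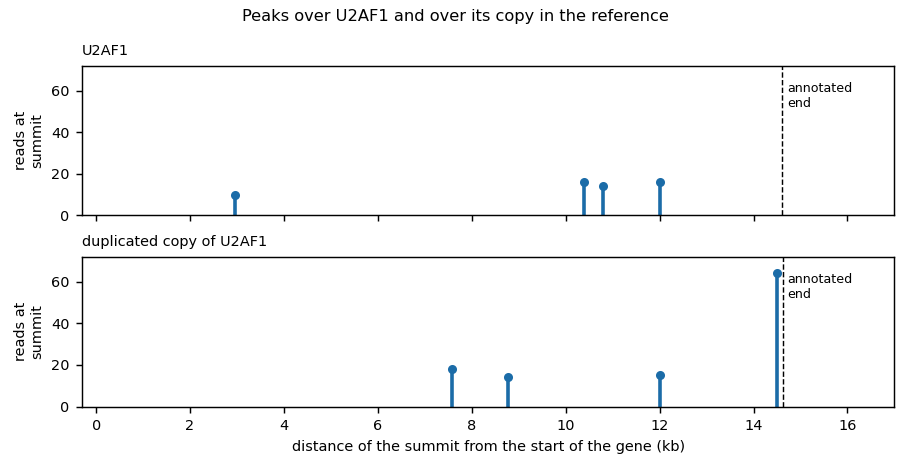
Reads at the summit (vertical axis) of each peak against the distance of its summit from the start of the gene (horizontal axis, kb), for U2AF1 and its duplicated copy. The dashed line marks the annotated end, where the copy had a peak of 64 reads and U2AF1 none. The copy's peak of 15 reads was under the cutoff.

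U2AF2, the polypyrimidine-tract partner of U2AF1, had an end peak of 28 reads with its summit inside the gene, and 19 reads in intron 11. The 3′ edge of the end peak lay 134 bp past the end, with no hexamer in the 100 bp before it. Both peaks also lay in an overlapping gene of the opposite strand. A peak with its summit 4260 bp past the end of U2AF2, with 19 reads, was just outside the 4 kb stretch. A peak of PRPF3 with its summit at 3500 bp, with 16 reads, was just inside. PUF60, a poly-U binding protein related to U2AF2, had 34 reads at its end and 1 intronic peak of 12 reads.

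U2SURP, a U2-associated SR-like protein, had the most peaks of the list, 27, with 14 of them intronic. Its tallest transcript-end peak, 61 reads, was not at the canonical end. It lay in intron 25, 27 bp before the end of an annotated shorter transcript and 6970 bp before the canonical end. Sites in the 3′ UTR had 39 and 25 reads near annotated ends and 23, 22 and 15 reads further on. Of the intronic peaks, 7 lay before the start of the canonical transcript, inside the overlapping gene PAQR9-AS1 on the same strand, and cannot be told apart from transcripts of that gene. They had 18, 21, 18, 11, 23, 12 and 28 reads. Within the canonical transcript there were 17 reads in intron 1, 32 in intron 6, 22 in intron 13, 21 in intron 23, and 12, 13 and 16 in intron 24.

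DDX46, the Prp5-type ATPase that helps U2 onto the branch point, had 26 peaks, 12 of them intronic. Intron 1 alone had 4 peaks with 50, 25, 24 and 23 reads. Introns 5, 6, 15, 16 and 18 had 17, 12, 16, 11 and 10 reads, and 10, 21 and 27 reads lay past the canonical end. Its tallest peak of any class, 55 reads, lay in coding sequence. The canonical end had 18 reads, and 27 reads lay 1825 bp before it. The tallest transcript-end peak, 29 reads, lay 24009 bp past the canonical end, where the gene model runs through C5orf24 on the same strand, as did 40 reads at 25562 bp. DDX46 was therefore a gene in which the tallest intronic peak, 50 reads, was taller than any at its transcript ends.

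RBM17, a splicing factor that binds SF3B1, was another. Its intron 1 peak had 44 reads, against 36 reads at the tallest transcript-end site, 1473 bp before the canonical end, and 15 reads at the canonical end itself. DHX15, the helicase that takes spent spliceosomes apart, had 10 intronic peaks. Those in intron 1 had 23, 22 and 21 reads, close to its canonical end with 25. There were 7, 14 and 14 reads in intron 3, 16 in intron 5, 12 in intron 6, and 17 and 9 past the canonical end. DHX15 also had the peak just over the q-value cutoff, with −log10 q of 5.021 and 9 reads, and CDC5L that just under it, with 4.995 and 11 reads.

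Among the tri-snRNP genes, all 12 had a transcript-end peak and in none of the 11 with an intronic peak was it taller than the tallest transcript-end peak. PRPF8, the scaffold of the active site, had 36 reads 9 bp past its canonical end, and intronic peaks of 22 reads in intron 3 and of 14 and 15 reads in intron 24. A further 25 reads lay in intron 3 near an annotated short transcript. SNRNP200, the helicase that unwinds U4 from U6, had 29 reads at its canonical end, 42 reads 353 bp before it and 58 reads 334 bp past it. The last site lies in CIAO1, on the opposite strand. EFTUD2, the GTPase of U5, had 58 reads in a 3′ UTR peak 274 bp wide, but 23 reads at the canonical end, which lies opposite HIGD1B. The 3′ edge of the 58-read peak lay 863 bp before the canonical end and within 1 bp of an annotated end. The reads at its summit end before that edge. In both genes the peak nearest the canonical end was thus not the tallest.

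The U4/U6 proteins ranged widely. PRPF3 had 29 reads at its end and 26, 22 and 15 reads in introns 7, 9 and 4. PRPF4 had 42 reads at its end and 26 and 23 reads in intron 2. PRPF31 had the lowest tallest transcript-end peak but for U2AF1, 20 reads 3 bp past the canonical end, with 16 and 13 reads in introns 1 and 3. PRPF6, which bridges U5 and U4/U6, had 28 reads 8 bp past the only end annotated for it, and 4 intronic peaks of 7 to 22 reads.

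SNRNP40, a WD-repeat protein of U5, had 21 reads at its canonical end and 7 intronic peaks of 8 to 15 reads, at the 88.8th percentile of genes of like length. DDX23, the helicase that exchanges U1 for U6 at the 5′ splice site, had 38 reads at its end and 1 intronic peak of 11 reads. PRPF4B, a kinase of the tri-snRNP, had 42 reads in coding sequence, above the 25 reads of its tallest transcript-end site in intron 6. The canonical end had 14 reads and also lay opposite FAM217A.

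PRPF38A, which joins before activation, had 33 reads at a 3′ UTR site 3589 bp before its canonical end and 32 reads at that end. All of its 6 peaks lay in TUT4, on the opposite strand. Its relative PRPF38B had 57 reads in coding sequence near an annotated short transcript and 41 reads at the canonical end, and no intronic peak.

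In the Prp19 complex and the catalytic steps, all 5 genes had an intronic peak. PRPF19, a ubiquitin ligase, had 38 reads at its tallest end, 176 bp before the canonical end, and 4 intronic peaks of 14 to 24 reads, at the 91.4th percentile of genes of like length. DHX16, the helicase of activation, had an end peak of 46 reads with its summit inside the gene. The 3′ edge of that peak lay 125 bp past the canonical end, with no hexamer in the 100 bp before it. DHX16 also had 20, 18 and 15 reads in introns. DHX38, the helicase that acts between the steps of splicing, had 34 reads 4 bp past its end, and 13 and 11 reads in introns. The end peak of DHX16 also lay opposite C6orf136, and that of DHX38 opposite PMFBP1. PRPF18, a second-step factor, had 46 reads 22 bp past its canonical end. It had 9 intronic peaks, with 10, 12, 14 and 22 reads in intron 1 and 22 and 12 in intron 9. The other 3, with 28, 19 and 9 reads, lay past that end, where the gene model runs into FRMD4A on the opposite strand.

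CDC5L, a Myb-like protein of the Prp19 complex that the study also examined as a kinase substrate, had 13 peaks over 62.7 kb, with 6 in introns, 6 in exons and 1 at its end. The end peak was 454 bp wide, with 21 reads and a 3′ edge 774 bp past the canonical end. No hexamer was present in the 100 bp before that edge, a stretch that does not cover the summit. A site in the 3′ UTR 3382 bp before the end had 33 reads and an AATAAA, and sites 1278 and 717 bp before it had 17 and 19 reads. In introns, 30 reads lay in intron 6, 21 in intron 2, 17 in intron 7, and 12 to 15 in introns 9, 13 and 14. Coding sequence held 28, 17 and 16 reads. The intron 6 peak was therefore taller than the end peak, but not taller than the proximal 3′ UTR site.

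The SR-related genes had 3 to 7 transcript-end peaks each, a median of 5 against 2 over the list. They also had a median of 19 annotated ends against 8, and each end adds a window in which a peak is counted. SRRM2, a scaffold of nuclear speckles, had 59 reads at its end in a peak 931 bp wide, with no hexamer near its 3′ edge, 40 reads in intron 12 near an annotated end, and 33 and 31 reads in intron 1. SRRM1, its partner in splicing, had 55 reads in intron 4 at an annotated short transcript, 49 reads in coding sequence near another and 28 reads at the canonical end. RBM25, a U1-associated protein, had 56 reads in coding sequence and 56 in an alternative exon within canonical intron 9, against 38 reads at its tallest transcript-end site, in coding sequence 12989 bp before the canonical end. The canonical end of RBM25 had 19 reads.

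PRPF40B, which links U1 to the branch-point side, had 11 intronic peaks of 11 to 21 reads. Of these, 6 lay before the start of the canonical transcript, with 16, 11, 12, 13, 13 and 21 reads, and intron 1 had 14 reads. Those of 11 and 12 reads and the first of 13 lay opposite FAM186B. The other 4 intronic peaks lay opposite FMNL3, with 16, 19, 20 and 16 reads in introns 15 to 18. Its tallest end peak, 32 reads, lay 440 bp past the canonical end, next to a genomic stretch in which all of the following 20 bases were A. The canonical end had 18 reads, and both of these end peaks also lay opposite FMNL3. In all, 11 of the 15 peaks of PRPF40B lay in genes of the opposite strand and cannot be told apart from those genes.

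**Figure D4:**
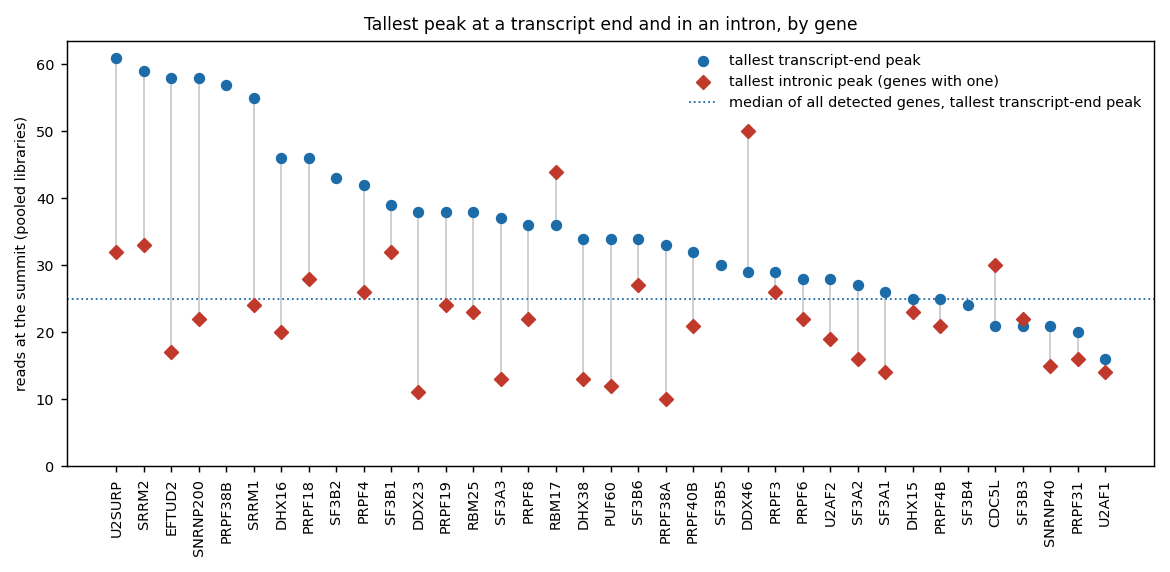
Reads at the summit of the tallest transcript-end peak (circles) and the tallest intronic peak (diamonds) of each gene, ordered by the former. The dotted line is the median tallest transcript-end peak of all genes with one, 25 reads, and in DDX46, RBM17, CDC5L and SF3B3 the diamond is the higher.

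Over the list, the tallest peak of any class was at a transcript end in 28 genes, in an exon in 5, past the last end in 3 and in an intron in 1, RBM17. The tallest intronic peak was taller than the tallest transcript-end peak in 4 of the 33 genes with an intronic peak (12.1%), against 34.7% over all genes and 12.8% in the other spliceosome list. This count depends on what is taken as a transcript end. It was 9 of 34 genes (26.5%, 14.6 to 43.1) with a window of 100 bp on either side, against 41.5% over all genes, and 11 of 34 (32.4%, 19.1 to 49.2) with the canonical transcript only, against 52.9%. The tallest exonic peak was the taller in 6 of 37 genes (16.2%), against 14.3%: SF3A1, SF3B3, DDX46, PRPF4B, CDC5L and RBM25. Tallest intronic peaks had a median of 22 reads (range 10 to 50), and 21 over all genes. The median tallest intronic peak was thus within 1 read of that over all genes, while that of the tallest transcript-end peak was 34 reads against 25.

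Of the 37 tallest transcript-end peaks, 23 were within the window of 200 bp before to 600 bp past the canonical end, which takes in sites such as that of SNRNP200 334 bp past it, 7 were elsewhere in the 3′ UTR, 4 in canonical introns, 2 in coding sequence and 1 past the canonical end. The 4 intronic ones were those of U2AF1, U2SURP, PRPF4B and SRRM1, and those in coding sequence were those of PRPF38B and RBM25.

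Intronic peaks were common in these genes relative to the length of their introns. At least 1 was found in 33 of the 36 genes with an intron (91.7%), against 80.0% of all genes with an intron and a transcript-end peak. There were 0.158 intronic peaks per kb of intron (0.134 to 0.185), against 0.116 (0.0998 to 0.134) in the other spliceosome genes and 0.0883 (0.0877 to 0.0889) over all genes. Without peaks that also lie in another gene the density was 0.128, over the unchanged intron length. The value over all genes was not computed for that setting. The median length of the 37 genes was 28.4 kb, against 35 kb over all genes. When each gene was set against genes of like length, in 20 bins, 18 of the 36 lay above the median of their bin, 12 at it and 6 below it, where over all genes 40.2% lay above and 35.3% below. The density was 0.155 per kb in the U2 genes, 0.156 in the tri-snRNP genes, 0.151 in the Prp19 and catalytic genes and 0.175 in the SR-related genes, with overlapping intervals. The genes with the most intronic peaks were U2SURP with 14, DDX46 with 12, PRPF40B with 11, DHX15 with 10 and PRPF18 with 9, which are also the longest of the list.

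**Figure D5:**
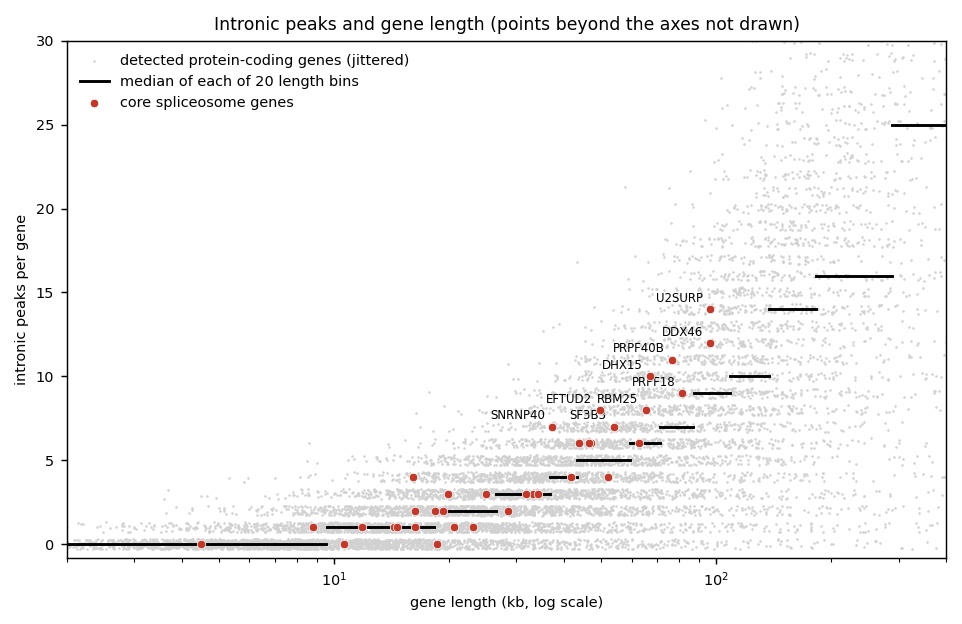
Intronic peaks per gene (vertical axis) against gene length (horizontal axis, kb, log scale) for the 36 core spliceosome genes with an intron (red) and all genes with an intron and a transcript-end peak (grey, jittered), with the median of each of 20 length bins as black bars. Of the red points, 18 lie above their bin's median, and U2SURP is the highest with 14 peaks.

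The intronic peaks were spread along the genes. Of the 128 that could be numbered in the canonical transcript, 36 (28.1%, 21.1 to 36.5) lay in intron 1 and 62 (48.4%, 40 to 57) in introns 1 to 4. Over all genes these shares were 31.6% and 63.8%. The share in introns 1 to 4 was not scaled to their bases or to the number of introns per gene. Intron 1 made up 15.4% of the canonical intron bases of these genes and 24.6% of those of all genes, so relative to its length intron 1 had more peaks in both.

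A PAS hexamer was present before the 3′ edge of 203 of the 339 peaks, 59.9% (54.6 to 65.0), against 62.5% over all genes and 46.3% (41.1 to 51.6) on the opposite strand of the same peaks. AATAAA alone was present at 31.3% (26.6 to 36.4), against 30.5% over all genes and 10.6% (7.77 to 14.4) on the opposite strand. By class, a hexamer was found at 72.9% of transcript-end peaks (63.3 to 80.8), 62.7% of exonic peaks (50.7 to 73.3) and 50.3% of intronic peaks (42.5 to 58.1). Over all genes these shares were 79.2%, 68.6% and 57%. On the opposite strand the transcript-end peaks gave 46.9% (37.2 to 56.8), and the exonic peaks 62.7%, the same as on the gene strand. For the intronic peaks the opposite strand gave 36.8% (29.6 to 44.6), and for AATAAA the shares were 31.0% (24.2 to 38.6) and 9.68% (5.95 to 15.4). Peaks in the 3′ UTR had a hexamer at 83.8% (73.8 to 90.5), against 84.7% over all genes and 58.1% (46.7 to 68.7) on the opposite strand.

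Genomic A can prime the reverse transcription of this assay inside a transcript, and the bases past the 3′ edge were therefore read as well. Runs of 25 bases with 22 or more A lay within 50 bp of 9 peaks, 2.65% (1.40 to 4.97), against 4.01% over all genes. The median A content of the 20 bases past the edge was 30% for transcript-end peaks, 45% for exonic peaks and 55% for intronic peaks, compared with 25%, 40% and 60% over all genes. The intron 1 site of SF3B6 shown above held CTCAAAA in its window of 120 bases. This motif, chosen after the sequences were seen, was present at 38 of the 155 intronic peaks, 24.5% (18.4 to 31.9), but at 1.29% (0.355 to 4.58) on the opposite strand of the same windows. Over all intronic peaks the shares were 18.7% and 2.20%. How many of the intronic peaks are cleavage sites and how many are priming at genomic A was not tested.

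As a share of peaks, not scaled to its length, coding sequence was a frequent place in these genes. It held 46 of the 339 peaks in the canonical transcript, 13.6% (10.3 to 17.6), against 4.38% (4.27 to 4.49) over all genes and 10.5% (7.82 to 13.9) in the other spliceosome genes. Of the 46 peaks, 13 were in the transcript-end class. The 46 were found in genes such as DDX46 and U2SURP with 6 each, and SF3B1, CDC5L, RBM25 and SNRNP200 with 3 each. A hexamer was present at 52.2% (38.1 to 65.9) of them and at 58.7% (44.3 to 71.7) on the opposite strand, and AATAAA at 10.9% (4.73 to 23) and 8.70% (3.43 to 20.3). The 20 bases past their 3′ edge had a median of 50% A. In coding sequence the hexamers were thus at like shares on both strands in these genes. Over all genes the shares in coding sequence were 63.5% and 45.9%, and in the other spliceosome genes 75.6% (60.7 to 86.2) and 51.2% (36.5 to 65.7), so the equal shares rest on 46 peaks and were not seen in either comparison.

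Genes with a peak past the last annotated end were counted only where no other annotated gene lay between 600 bp and 4 kb past it. The 21 peaks past the last end given above were counted without this limit. Of 16 such genes, 4 (25%) had a peak there, SF3B4, SF3B5, U2SURP and PRPF3, against 18.6% over all genes and 25.9% in the other list. In the remaining genes with a downstream peak, such as SNRNP200 next to CIAO1, DDX23 next to CACNB3 and PUF60 next to SCRIB, the signal cannot be told apart from that of the neighbour. SF3B3 and SF3B6, whose downstream peaks are given above, are also among these genes. A total of 62 of the 339 peaks (18.3%, 14.5 to 22.8) had a summit that also lay in another annotated gene, against 26.2% over all genes. A near-identical copy of the 100 bases at the summit was present elsewhere in the genome for 11 peaks (3.24%, 1.82 to 5.72), against 6.48% over all genes. These were 3 peaks of U2AF1, 2 of SRRM1 and 1 each of SF3A3, SF3B3, PRPF4B, PRPF6, PRPF18 and CDC5L.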

How the data were processed

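Poly(A) 3′-seq was performed in 6 libraries of IMR-32 cells (3 groups of 2 replicates). The authors mapped reads to GRCh38 with STAR 2.5.1b, keeping up to 20 placements, pooled all samples, assumed to be the 6 libraries, and called peaks once with MACS2 2.1.1 with reads extended to 100 bp and no control library. SAMtools and deepTools 2.5.4 are also in the submitters' processing notes. The deposited fold enrichment is the ratio of pileup plus 1 to local background plus 1 at the summit. For every peak the authors deposited a −log10 p-value, a −log10 q-value, a score (not used) and the offset of the summit. There is no strand and no value for a single library, so no test between groups was possible. The q-values are those of the authors' peak caller.

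Reads at the summit were solved from fold and −log10 p (largest misfit 0.000172). On 15808 simulated peaks 100.0% were recovered. The background floor was 0.337 reads, and 119 peaks first solved under it were solved again with the floor imposed. Peaks were placed in genes of GENCODE release 44 (the study used release 27). A peak in several genes was counted in each. Site sequences were read from GRCh38, and some are not reported here. Near-identical copies were places where at least 95 of the 100 bases at a summit matched elsewhere (minimap2 2.31-r1302). Python 3.11.15, pandas 2.3.3 and scipy 1.17.1 were used. All 37 genes were named. The rule gave most values to SF3B1, CDC5L and the genes with the most or tallest intronic peaks, the tallest or lowest transcript-end peaks, or copies elsewhere, and for some of these the exonic peaks are not listed. Other sites were named after their values were seen. The members and lists were chosen with earlier results of these data known.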

Additional observations from a re-analysis of the deposited data

Results flagged for a closer look

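The annotated artifactual duplicate of U2AF1 lies outside the 37 genes, and a transcript-end peak was found over it with 64 reads at the summit, while U2AF1 had no peak at its own end. It was set apart because signal appeared at a locus that no comparison above uses, above the 3 reads that a count of 0 allows. The 64 reads exceed the 61 of the tallest transcript-end peak in the list, whereas U2AF1 itself, with 16, had the lowest. The identical ends cannot place the reads, and this was not tested. By its tag the copy is not a gene of its own, so the 16 reads of U2AF1 leave out what would count as its end peak.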

How the results depend on the processing

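No paired analysis was possible because 1 pooled list holds every library, and for the same reason no replicate could be left out. Of 67 recomputed values (11 results, 10 alternatives), 49 stayed within 1.5 times the count or within the interval of the main value and 18 did not. With −log10 q of at least 20 there were 57 peaks, 10.5% were intronic, 54.4% were at transcript ends, 77.2% had a hexamer, 6 genes had an intronic peak (0.00611 per kb of intron) and 0 genes had a peak in a clear stretch past the last end. The split between introns and transcript ends thus depends on the cutoff. With no cutoff there were 0.205 intronic peaks per kb, and without peaks that also lie in another gene 0.128, with the intron length left whole. With the canonical transcript only, 11.2% of peaks were at transcript ends, the median tallest transcript-end peak was 28 reads (33 genes) and the tallest intronic peak was the taller in 11 genes. With an end window of 100 bp on either side, 18.9% of peaks were at transcript ends and the tallest intronic peak was the taller in 9 genes. AATAAA alone gave 31.3% and a hexamer window ending at the summit 38.3%. At least 18 A in 25 bases gave 11.5%, and leaving out peaks with an A stretch and no hexamer left 0.302% with a stretch. Depth per library is unknown, and the duplicate setting behind the heights is not stated in the methods.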
